A study of Mus musculus and Homo sapiens with 27 samples.

Results

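The 11 genes of the B-cell antigen receptor and its first signalling steps that are described here were chosen by name. The mouse genes were Cd79b and Bank1, and the human genes were CD79A, CD79B, CD22, LYN, SYK, BLNK, BTK, BLK and BANK1. Together they make 11 of 4935 genes that carried 1 symbol, with 4 of 12292 features on the mouse array and 60 of 15246 on the human array. The array was the lymphochip, a spotted cDNA array of lymphocyte genes on which 2 dye-labelled RNAs compete for each spot.

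The mouse samples were splenic B cells of adult Balb-c mice, cultured with the bacterial product lipopolysaccharide (LPS) for 24, 48 or 96 h or left unstimulated (0 h). KO cells lacked Irf4 on both alleles (Irf4 -/-) and each of their 4 times had 3 arrays. Het cells (Irf4 +/-) served as controls, so the controls also lacked 1 allele. They had 3 arrays before LPS, then 2, 2 and 4 arrays at the 3 LPS times. Every mouse RNA was set against a pool of RNA from B-cell, T-cell and monocyte or macrophage lines. The human samples were OCI-Ly7 cells, a diffuse large B-cell lymphoma line of germinal centre type, given an IRF4 vector (Vxy-IRF4) and set against OCI-Ly7 cells given the empty vector (Vxypuro), on 4 arrays, of which 2 were made at day 3 and the others at days 2 and 5. The sample labels name the empty vector, which is followed here, whereas the series' design text calls the control cells non-transduced. The series describes its repeats as biological; the number of arrays, 23 mouse and 4 human, limits the precision. All values are log2 ratios as deposited, after subtracting each array's median, and a gene's value is the mean of its features. A mouse value is the sample over the pool, and a human value is the IRF4 vector over the empty vector. Neither this direction nor the base of the logarithm is stated in the sources used here: the labels give Cy5 to the sample and to the IRF4 vector, and Cy5 over Cy3 on a base of 2 is assumed throughout. Under the opposite direction every sign below would turn.

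The B-cell receptor is a membrane immunoglobulin bound to a dimer of CD79A and CD79B, whose tails carry the tyrosine motifs that start the signal. Src-family kinases such as LYN and BLK phosphorylate those motifs, SYK docks on them, and the adaptor BLNK then brings BTK to its substrates. CD22 is an inhibitory co-receptor on the same membrane, and BANK1 is a B-cell scaffold that LYN phosphorylates. IRF4 is a transcription factor needed for immunoglobulin class switching and for plasma cells, in which much of the B-cell programme is shut down.

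No mouse feature carried the name of the deleted gene, so genotype could not be checked on it. Jchain, a plasma cell gene for the chain that joins IgM and IgA units, was lower on every KO array than on any Het array of the same time, with a mean at 0 h of -5.46 ± 4.18 in KO cells and 1.98 ± 0.62 in Het cells (SD, n = 3 each). By title 3 arrays are KO that are Het by their channel fields, namely replicate 3 at 24 h and replicates 1 and 3 at 48 h. Their Jchain values were -2.98, -4.00 and -3.92, within the values of the other KO arrays. Titles carry a database number that falls into 3 separate ranges. The lowest range holds 5 mouse arrays (replicates 1 and 2 of Het at 0 h, and replicate 1 of KO at 0 h, KO at 24 h and Het at 24 h), and the spread of all features on these arrays was wide (SD 1.35 to 3.10, against 0.975 to 1.79 for the 13 arrays of the highest range). Of 10 T-cell markers 1 was measured, Cd3g, which lay below the pool on every array (group means -3.09 to -1.44). Of 5 natural killer cell markers 1 was measured, Gzma (group means -2.20 to 0.11). Of 11 myeloid markers 2 were measured, Ncf1 and Tyrobp. Together they averaged 0.655 to 1.68 on KO arrays and -3.41 to 0.709 on Het arrays at 0 h. At 96 h they averaged 1.12 to 1.38 on KO arrays and -0.157 to 0.802 on Het arrays. At 24 and 48 h the genotypes overlapped. The part of these markers in the mouse values below was not tested.

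Bank1 carries in its proximal promoter a match to the ETS-IRF composite element, the site at which IRF4 binds DNA together with the ETS factor PU.1. The match is shown because it is the kind of site through which the deleted factor is known to act. RefSeq's promoter table (GRCm38.p6) held an entry for 1 of the 2 mouse genes, Bank1. Both strands of the 250 bases before its start were searched for 4 motifs: the composite element (GGAA, 2 bases of any kind and GAAA), the interferon response core (GAAA, 2 bases of any kind and GAAA), the octamer ATGCAAAT and the PU.1 site GAGGAAGT. The first and second motif can overlap each other, as can the first and the last. Only the composite element was found, once, on the strand opposite to the gene, from 57 to 66 bases before the start. The 30 bases around it (chr3:136326113-136326142, minus strand, the gene's own strand) read as follows, with the match in capitals as it appears on the gene's strand.
Bank1 promoter site: gcctgagcaaTTTCACTTCCcccagcaagg
The same motif occurred in 756 of 32851 mouse promoters of the table, or 2.3%. The match is a description of the sequence; binding was not measured.

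With Cy5 over Cy3, Bank1 had the highest median level over the pool among the 331 named mouse genes. That level was 3.82 over the 23 arrays, rank 1 of 331 (-3.82 and rank 331 with the ratio turned), and it lay above the pool on 23 of 23 arrays, between 9.36-fold and 35.6-fold. Both Bank1 features gave like levels, with a mean difference of -0.02 between them and a correlation across arrays of 0.69 (Spearman 0.64, n = 23, arrays share the pool).

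Before LPS, Bank1 levels were 3.82, 3.30 and 3.27 in the KO arrays, against 5.16, 5.15 and 4.00 in the Het arrays. Every KO array lay below every Het array, and the lowest Het array was the one outside the lowest database range. The mean was 3.46 ± 0.31 in KO cells and 4.77 ± 0.67 in Het cells (SD, n = 3 each), a log2 difference of -1.30 (SE 0.37, 95% interval -2.08 to -0.53), or 2.47-fold less. limma gave an unadjusted p of 0.00247 and an adjusted p of 0.101, so the difference did not pass the threshold of 0.05. Of all 331 genes, 3.63% had every KO array below every Het array at this time, and 1.81% passed the threshold. In bulk RNA, fewer cells of a kind and less RNA per cell cannot be told apart. Within the lowest range the difference was -1.33 (1 KO array, 2 Het arrays), and within the highest it was -0.73 (1 array each). The call depended on scaling: Bank1 passed when arrays were centred over the named features alone (-1.15, adjusted p 0.00604) or not centred (-1.15, adjusted p 0.0294), and it also passed without replicate 3 of Het at 0 h (-1.69, adjusted p 0.00361), while quantile normalization left a difference of -0.04 (adjusted p 0.995).

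After LPS no difference in Bank1 between the genotypes passed. At 24 h Bank1 stood at 3.40, 3.47 and 3.79 in KO cells and at 4.41 and 4.12 in Het cells. The KO arrays again lay below both Het arrays, an arrangement that 19.3% of the 331 genes shared, and the difference was -0.71 (SE 0.41, adjusted p 0.420). At 48 h the levels were 4.74, 3.78 and 3.84 in KO cells and 4.23 and 3.46 in Het cells, and the groups overlapped. The 48 h difference was 0.27 (SE 0.41, adjusted p 0.997). At 96 h they were 3.67, 3.80 and 3.89 in KO cells and 3.23, 3.69, 3.91 and 4.10 in Het cells. The KO values fell inside the Het range, with a difference of 0.05 (SE 0.35, 95% interval -0.68 to 0.78, adjusted p 0.993).

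**Figure D1:**
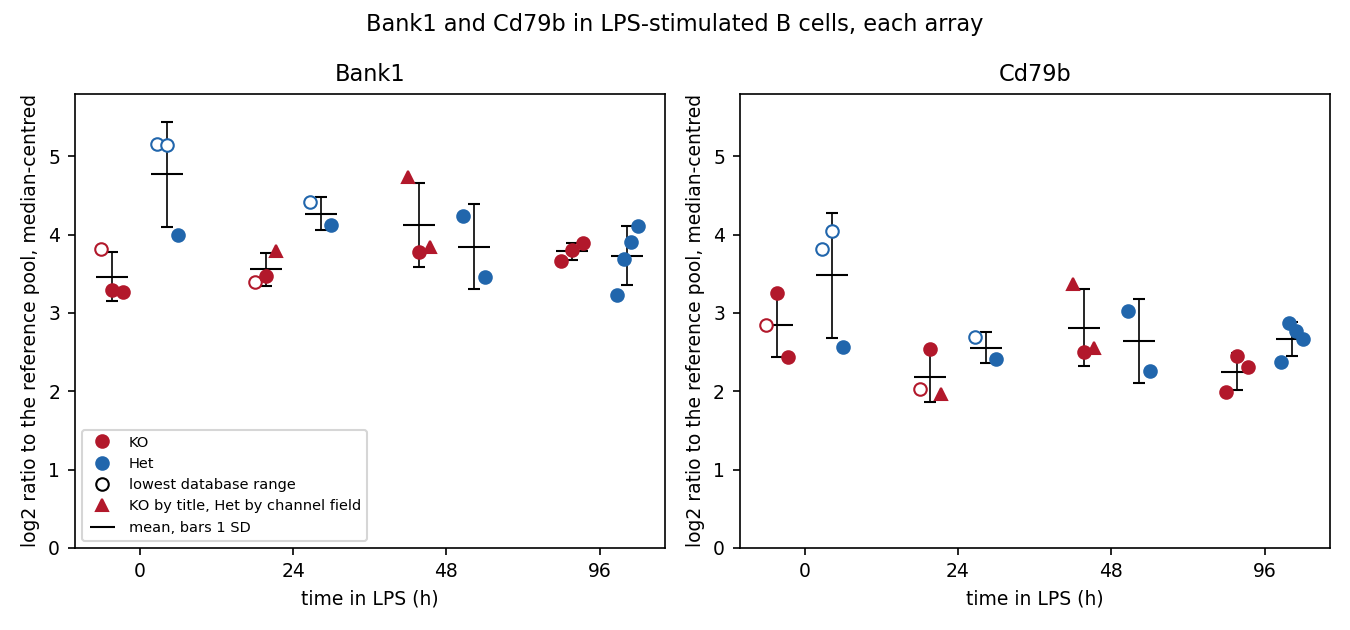
Bank1 (left) and Cd79b (right) on each of the 23 mouse arrays by time in LPS (h), as the median-centred log2 ratio to the reference pool, with KO (red) left of Het (blue) at each time, open circles for the lowest database range, triangles for the 3 arrays with conflicting genotype labels, and mean and SD in black. All values lie above the pool, and at 0 h the KO values of Bank1 (3.27 to 3.82) lie below the Het values (4.00 to 5.16).

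Bank1 was lower in Het cells at 96 h of LPS than before it. At 0, 24, 48 and 96 h its Het means were 4.77 ± 0.67, 4.27 ± 0.21, 3.85 ± 0.55 and 3.73 ± 0.38 (SD, n = 3, 2, 2 and 4). The change against 0 h was -0.50 at 24 h (adjusted p 0.465), -0.92 at 48 h (adjusted p 0.172) and -1.03 at 96 h (SE 0.35, adjusted p 0.0366, 2.05-fold less). Quantile normalization turned the earlier changes to 0.20 at 24 h and 1.18 at 48 h. Leaving out the lowest range turned the 24 h change to 0.12. Only the 96 h change passed, the only call for either mouse gene among 14 comparisons. In that comparison 25.7% of the 331 genes passed, 17.8% were called lower, and the median gene stood at -0.42. The sign held but the call was lost with arrays centred over the named features (-0.41, adjusted p 0.112), not centred (-0.72, adjusted p 0.0505) or quantile normalized (-0.45, adjusted p 0.487). The call was also lost without replicate 1 (-0.84, adjusted p 0.141) or 2 (-0.84, adjusted p 0.159) of Het at 0 h, and without replicate 1 (-0.87, adjusted p 0.108) or 2 (-1.02, adjusted p 0.0691) of Het at 96 h. The Het arrays at 0 and 96 h still overlapped. All Het 96 h arrays belong to the highest range, and against the single 0 h array of that range the difference was -0.27, with an adjusted p of 0.792 for the fit that left the lowest range out.

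In KO cells no change of Bank1 passed. At 0, 24, 48 and 96 h the KO means were 3.46 ± 0.31, 3.55 ± 0.21, 4.12 ± 0.54 and 3.79 ± 0.11 (SD, n = 3 each). The changes against 0 h were 0.09, 0.66 and 0.32, with adjusted p values of 0.981, 0.772 and 0.637. The LPS response of KO cells minus that of Het cells was 0.59 at 24 h (adjusted p 0.754), 1.58 at 48 h (SE 0.56, unadjusted p 0.0109, adjusted p 0.448) and 1.36 at 96 h (SE 0.51, unadjusted p 0.0155, adjusted p 0.225). No gene of the 331 passed in these tests of the difference (0%), although 8.46% at 48 h and 12.7% at 96 h had an unadjusted p under 0.05. Scaling and arrays moved these values. With arrays centred over the named features, Bank1 passed in both (1.56, adjusted p 0.0341, at 48 h and 1.35, adjusted p 0.0200, at 96 h). Quantile normalization gave -0.51 at 48 h (adjusted p 0.956) and 0.25 at 96 h (adjusted p 0.918), and leaving out the lowest range gave 0.99 at 48 h (adjusted p 0.458) and 0.77 at 96 h (adjusted p 0.464). The comparisons by genotype at 0 h, by time in Het cells and of the responses all use the same Het arrays at 0 h, so they are not separate observations.

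Cd79b, which encodes the receptor's CD79B chain, was also well above the pool, at rank 5 of 331 with a median level of 2.56. It lay above the pool on 23 of 23 arrays, between 3.91-fold and 16.5-fold. Its levels at 0 h were 2.85, 3.25 and 2.43 in KO cells and 3.82, 4.05 and 2.56 in Het cells. The groups overlapped, and both high Het values came from the lowest database range. The difference was -0.63 (SE 0.39, 95% interval -1.45 to 0.18, adjusted p 0.424). It passed without replicate 3 of Het at 0 h (-1.09, adjusted p 0.0411) and turned to 0.28 without the lowest range. Within the highest range it was -0.13, and it was -1.09 within the lowest.

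The Cd79b levels under LPS showed no difference between genotypes beyond the spread. At 24 h they were 2.03, 2.54 and 1.97 in KO cells and 2.69 and 2.41 in Het cells. At 48 h they were 3.37, 2.50 and 2.56 in KO cells and 3.02 and 2.26 in Het cells. At 96 h they were 1.99, 2.46 and 2.30 in KO cells and 2.37, 2.87, 2.77 and 2.66 in Het cells. The groups overlapped at each of these times. The differences were -0.37 (adjusted p 0.644), 0.17 (adjusted p 0.997) and -0.42 (adjusted p 0.993). Averaged over the 3 LPS times, KO minus Het was -0.21 for Cd79b (SE 0.24, 95% interval -0.70 to 0.29) and -0.13 for Bank1 (SE 0.23, 95% interval -0.61 to 0.35). Neither gene passed, where 0% of genes passed at 24 h and at 48 h, 2.72% at 96 h and 2.42% on average.

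The Cd79b means under LPS lay below the 0 h mean in both genotypes, but no change passed. In Het cells the 24 h change passed with arrays centred over the named features (-1.21, adjusted p 0.00418) or with the range as a factor (-1.21, adjusted p 0.0209), and the 48 h change passed with that centring (-0.91, adjusted p 0.0317). Without replicate 3 of Het at 0 h all 3 passed (-1.38, -1.29 and -1.27). Without the lowest range the Het differences were instead 0.076 at 48 h and 0.10 at 96 h, and quantile normalization gave 0.27 at 48 h. At 0, 24, 48 and 96 h the Het means were 3.48 ± 0.80, 2.55 ± 0.20, 2.64 ± 0.54 and 2.67 ± 0.22 (SD, n = 3, 2, 2 and 4), with adjusted p values of 0.153, 0.233 and 0.105 against 0 h. The KO means at the same times were 2.84 ± 0.41, 2.18 ± 0.31, 2.81 ± 0.49 and 2.25 ± 0.24 (SD, n = 3 each), with adjusted p values of 0.507, 0.992 and 0.367. Of the 331 genes 13.3% passed at 24 h and 8.46% at 48 h in Het cells, and 1.51% at 24 h, 1.51% at 48 h and 0.906% at 96 h in KO cells. The LPS responses of the genotypes differed by 0.26, 0.80 and 0.22 (adjusted p 0.899, 0.715 and 0.854). Ordered by mean, no 2 neighbouring groups of either gene differed by more than the sum of their SDs. The lowest Cd79b group was KO at 24 h and the highest Het at 0 h, and for Bank1 the lowest was KO at 0 h and the highest Het at 0 h.

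The Cd79b features disagreed more than those of Bank1. Feature 104633_1 averaged 1.97 ± 0.77 in KO cells and 2.98 ± 0.65 in Het cells at 0 h, while feature 105355_1 averaged 3.72 ± 0.73 in KO cells and 3.98 ± 1.04 in Het cells (SD, n = 3 each). The features correlated at 0.42 across the 23 arrays (Spearman 0.51), and the first lay 0.73 below the second on average, a mean difference of -0.73. Both Bank1 features were lower in KO cells at 0 h, feature 106080_1 at 3.56 ± 0.63 in KO cells and 4.81 ± 0.65 in Het cells, and feature 109578_1 at 3.37 ± 0.68 in KO cells and 4.72 ± 0.69 in Het cells (SD, n = 3 each).

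**Figure D2:**
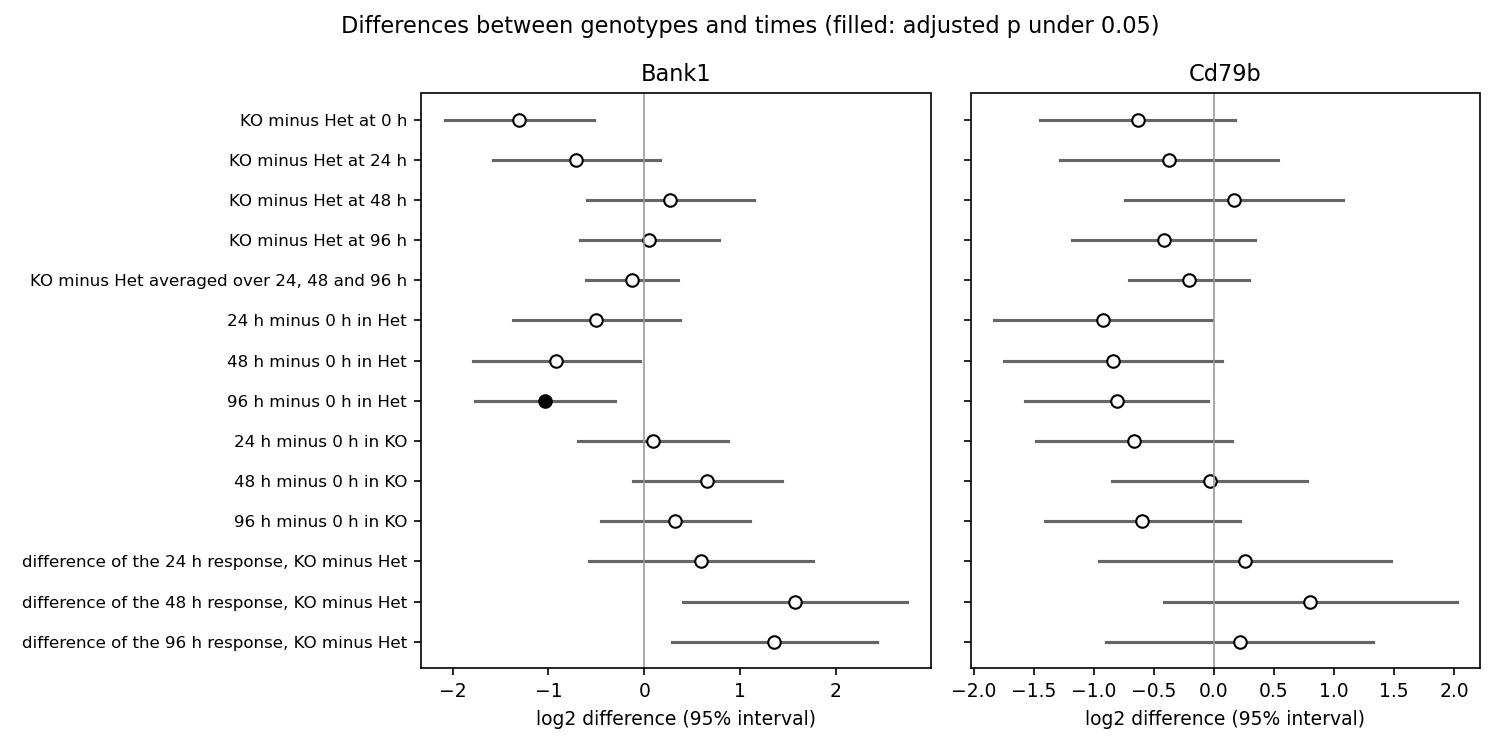
Log2 differences of Bank1 (left) and Cd79b (right) in each of the 14 comparisons, with 95% intervals as bars and a filled point where the adjusted p was under 0.05. The filled point is Bank1 at 96 h against 0 h in Het cells (-1.03), and the interval of Bank1 in KO minus Het at 0 h (-2.08 to -0.53) excludes 0 although its adjusted p was 0.101.

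Across the 23 arrays, Bank1 and Cd79b had a Pearson correlation of 0.73 (Spearman 0.57), given as a description. Without the 5 arrays of the lowest range the correlation was 0.38 (n = 18). The genes whose pattern was most like that of Cd79b were Ostm1 (0.90), 9430029L20Rik (0.87), Abca7 (0.85), Cytip (0.83) and Myo18a (0.82), where the median of all genes was 0.26. For Bank1 they were Tnrc18 (0.79), Cytip (0.75), Abca7 (0.74), Ostm1 (0.74) and Cd79b itself (0.73), where the median was 0.32. Cytip and Tnrc18 were still among the first 5 for Bank1 on the 18 arrays, at 0.63 and 0.64, whereas Abca7 was at 0.33. All arrays share the pool.

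Of 82 further genes of the pathway, 8 were named on the mouse array: Akt1, Cd81, Hcls1, Jun, Laptm5, Nck1, Rasgrp3 and Tec. None passed in a comparison of genotypes, where 1.81% of genes passed at 0 h, and at that time 7 of the 8 were lower in KO cells, with a median of -0.26 against -0.10 for all genes. The gene with an unadjusted p under 0.05, which 17.2% of all genes had, was Jun, a subunit of the AP-1 transcription factor that the receptor signal induces (0.70 ± 0.53 in KO cells, 2.28 ± 1.02 in Het cells, SD, n = 3 each, adjusted p 0.140). In Het cells under LPS, Tec and Jun were the members that passed. Tec, a kinase related to BTK, fell by 1.63 at 24 h (adjusted p 0.00943), 1.21 at 48 h (adjusted p 0.0463) and 1.58 at 96 h (adjusted p 0.00258). Jun fell by 1.98 at 48 h (adjusted p 0.0311) and 1.86 at 96 h (adjusted p 0.0104). Of all genes 2.72% were called lower at 24 h, 2.42% at 48 h and 17.8% at 96 h. Without the arrays of the lowest range neither gene was called at 96 h (Tec -1.44, adjusted p 0.0635, and Jun -1.85, adjusted p 0.0774), nor was Tec at 24 h (-1.12, adjusted p 0.171) or 48 h (-1.07, adjusted p 0.0921). The 48 h call of Tec was lost in 23 of 35 alternatives. In KO cells Tec changed by -0.74, -0.91 and -1.31 at these times, with adjusted p values of 0.365, 0.248 and 0.0643. The difference of the Tec responses was 0.89, 0.30 and 0.27 (adjusted p 0.544, 0.877 and 0.799). Jun averaged 0.70, 1.11, 1.01 and 0.07 in KO cells at 0, 24, 48 and 96 h. Its Het means at the same times were 2.28, 1.34, 0.30 and 0.41. No pathway gene passed in KO cells under LPS or in the differences of response. The calls of Jun in Het cells were lost in 7 of 35 alternatives at 48 h and in 5 of 35 at 96 h. Of the plasma cell markers 6 of 7 were measured. In KO minus Het cells 1 of the 6, Jchain, was called lower at 0 h and at 96 h, with 3 above and 3 below 0 at 0 h and 1 above and 5 below at 96 h. Their mean level per array was -0.944 to -0.814 in KO cells at 96 h and 0.947 to 1.12 in Het cells at 96 h, and it was -3.46 to -0.279 in KO cells and -1.15 to -0.188 in Het cells at 0 h. Their part in the Bank1, Cd79b and Tec values was not tested.

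In OCI-Ly7, the transduced gene did not settle the direction of the ratio. IRF4 stood at -0.29 at day 2, 0.67 and -0.17 at day 3 and -0.32 at day 5, a mean of -0.03 (adjusted p 0.964). Of its 4 features, 24729_1 lay above 0 on all 4 arrays (0.69 ± 0.12, SD, n = 4), and the others averaged -0.45, -0.36 and 0.02. JCHAIN lay above 0 on all 4 arrays, at 1.60 at day 2, 3.42 and 1.87 at day 3 and 3.09 at day 5, as did each of its 5 features. The plasma cell markers, 7 of 7 measured, averaged 1.66 to 1.83 on the 4 arrays. Of these, 5 had a mean above 0 and 2 below it (MZB1 at -0.23 and SDC1 at -0.08). The 1 that passed was TNFRSF17 (3.36, adjusted p 0.0455), the receptor for the survival factors BAFF and APRIL on plasma cells. The part of these plasma cell markers in the values below was not tested. Of 7 B-cell markers 6 were measured, 2 with a mean above 0 and 4 below it, and none passed. They include CD79A, CD79B and CD22, which are described below. The others were MS4A1 at 1.05 (limma, adjusted p 0.162), PAX5 at -0.61 (adjusted p 0.259) and CD74 at -0.24 (adjusted p 0.612). The dyes run the same way round on all 4 arrays, and an effect of the dye cannot be told apart from that of the vector.

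No human receptor gene passed the threshold with limma, where 5 of 4604 genes, or 0.109%, passed. Of the 9, 3 had an unadjusted p under 0.05, namely CD79B, BTK and CD22, all lower on the arrays labelled IRF4 vector. Of all genes 23.9% had such a p, and 16.0% had it and were lower. The median of all genes was -0.14. The same 3 genes lay below 0 on all 4 arrays, as 21.0% of all genes did, and CD79A was above 0 on all 4, as 17.0% were.

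The signalling chains of the receptor stood on opposite sides of 0. CD79B was at -1.39 at day 2, -1.17 and -2.03 at day 3 and -2.86 at day 5. All 4 values were below 0, and the mean was -1.86 (SE 0.36, 95% interval -2.74 to -0.98). With Cy5 over Cy3 that is 3.64-fold less CD79B with the IRF4 vector than with the empty vector, and with the ratio turned it is a mean of 1.86 and as much more. Its unadjusted p was 0.00198 and its adjusted p 0.123, and 6.54% of the genes had a lower mean. CD79B passed in 2 of 13 alternatives, quantile normalization (-1.98, adjusted p 0.0361) and array weights (-1.85, adjusted p 0.0409). With values beyond 6 set missing, CD79B stood at -1.46 (adjusted p 0.117). Its partner CD79A was at 0.64 at day 2, 0.51 and 1.05 at day 3 and 0.04 at day 5. These values were small and all positive, with a mean of 0.56 (SE 0.29, 95% interval -0.14 to 1.25, adjusted p 0.270). The intervals of the chains did not overlap, but the difference between them was not tested.

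CD22 was below 0 on every array, at -1.33 at day 2, -0.48 and -1.17 at day 3 and -0.23 at day 5. Its mean was -0.80 (SE 0.31, 95% interval -1.55 to -0.05, adjusted p 0.192). The arrays of the second database range, day 2 and day 3 replicate 2, averaged -1.25, and those of the first averaged -0.36. Feature 30699_1 read -4.505 at day 2 and -6.22 on day 3 replicate 2. On day 3 replicate 1 and at day 5 it read -1.29 and 0.67. With values beyond 6 set missing, CD22 stood at -0.59 (adjusted p 0.263).

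**Figure D3:**
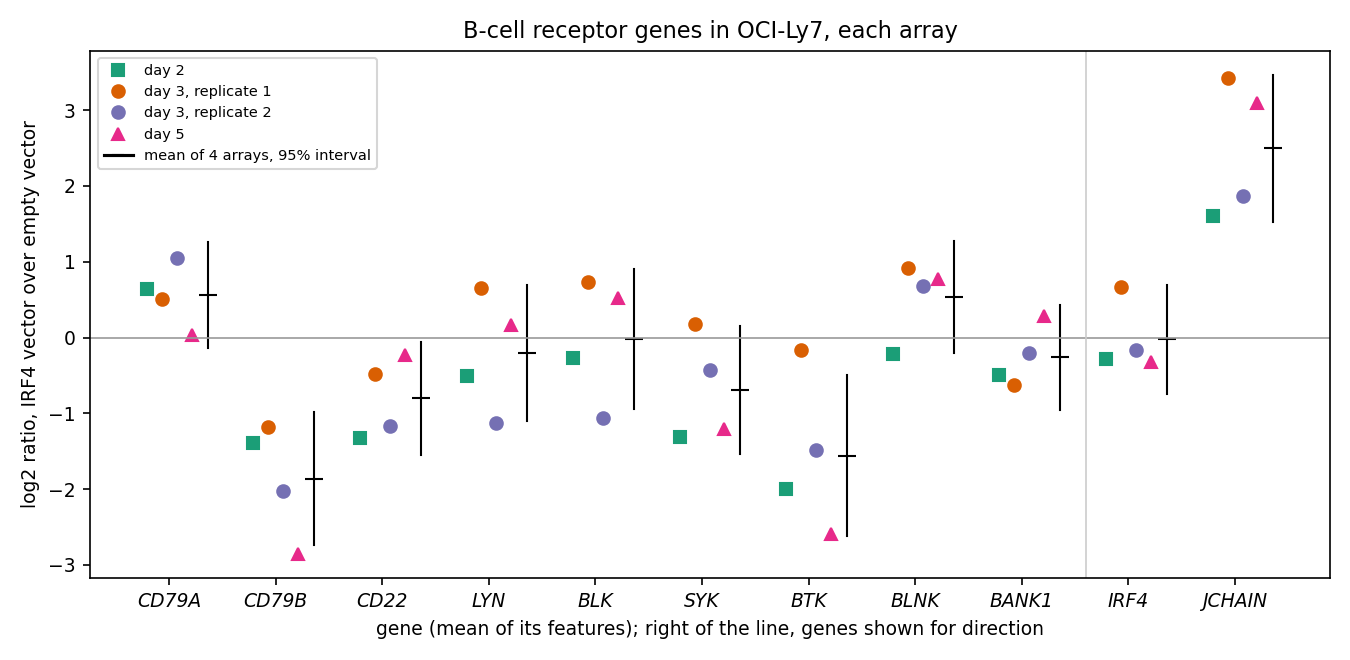
The 9 human receptor genes on each of the 4 OCI-Ly7 arrays, as the median-centred log2 ratio of IRF4 vector over empty vector, with the mean and its 95% interval in black; IRF4 and JCHAIN stand to the right of the line for comparison. CD79B lies between -2.86 and -1.17, while CD79A lies between 0.04 and 1.05.

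No kinase passed. BTK, the Tec-family kinase that activates phospholipase C gamma, was at -1.99 at day 2, -0.17 and -1.48 at day 3 and -2.60 at day 5. All arrays were below 0, with 1 near it, and the mean was -1.56 (SE 0.44, 95% interval -2.62 to -0.49, unadjusted p 0.0116, adjusted p 0.144). SYK was at -1.32 at day 2, 0.18 and -0.43 at day 3 and -1.20 at day 5, with a mean of -0.69 (SE 0.35, adjusted p 0.264). Its feature 29888_1 read -6.56 at day 2, and its feature 33976_1 read -6.53 at day 5. The median of the SYK feature means was -0.40, and over the alternatives the SYK mean ran from -0.98 to -0.13. Day 3 replicate 1 was the array on which SYK exceeded 0 and on which BTK came nearest to it.

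The means of the Src-family kinases split by database range. LYN was at -0.51 at day 2, 0.66 and -1.13 at day 3 and 0.17 at day 5, a mean of -0.20 (95% interval -1.10 to 0.69, adjusted p 0.738). BLK was at -0.27 at day 2, 0.74 and -1.07 at day 3 and 0.52 at day 5, a mean of -0.02 (95% interval -0.94 to 0.90, adjusted p 0.979). Both were above 0 on the 2 arrays of the first range (mean 0.42 for LYN, 0.63 for BLK) and below 0 on the 2 of the second (mean -0.82 and -0.67). Single features weigh on these means. On day 3 replicate 2 BLK feature 30748_1 read -5.81, and on day 2 LYN feature 17934_1 read -4.30. With a median per array in place of the mean, BLK stood at 0.31. The replicates of day 3 lie in different ranges, and the part of the range in the LYN and BLK values was not tested.

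Neither adaptor passed. BLNK, which links SYK to BTK, was at -0.22 at day 2, 0.92 and 0.68 at day 3 and 0.77 at day 5, with a mean of 0.54 (SE 0.30, 95% interval -0.20 to 1.28, adjusted p 0.305). BANK1, the human counterpart of the mouse gene above, was at -0.49 at day 2, -0.63 and -0.21 at day 3 and 0.28 at day 5, with a mean of -0.26 (SE 0.28, 95% interval -0.95 to 0.43, adjusted p 0.564). Both had 3 arrays on one side of 0 and 1 on the other. Single features weigh on these values as well. BLNK feature 33256_1 read -2.48 at day 2, where its other features read 0.15 to 0.64, and 3.17 at day 5. BANK1 feature 35198_1 read -3.92 at day 5, where its other features read 0.22 to 1.93.

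The single features show how far each mean can be trusted. CD79B was read by 12 features, of which 11 had a mean below 0 and 8 were below 0 on all 4 arrays. Their means ran from -5.36 to 0.23 with a median of -1.83, close to the gene's mean. The CD79B features also disagreed within an array. On day 3 replicate 1, 17476_1, 23866_1, 24293_1 and 27989_1 read 0.47, 2.25, 0.63 and 0.66, while 25179_1 read -6.09. Feature 34952_1 read -7.27 on day 3 replicate 2 and -10.4 at day 5. CD22 had 7 features, 6 with a mean below 0 and 4 below 0 on all arrays, such as 29836_1 at -1.34 ± 0.35 (SD, n = 4), against feature 25101_1 at 1.07 ± 0.95 (SD, n = 4).

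BTK rested on 3 of its 7 features. Features 30442_1, 32628_1 and 33614_1 averaged -5.40, -3.51 and -2.83 and were below 0 on all 4 arrays, while the other 4 averaged between -0.13 and 0.70. The median of the BTK features was -0.13, and with a median per array in place of the mean the gene stood at -0.37 (adjusted p 0.387). With values beyond 6 set missing it stood at -0.75 (adjusted p 0.190). Of the 9 SYK features 7 had a mean below 0, but 1 was below 0 on all arrays. All 5 BLNK features and all 3 CD79A features had a mean above 0. On all 4 arrays, however, 1 BLNK feature and 0 CD79A features were above 0. At day 5 CD79A features 16148_1 and 28689_1 read -0.41 and -0.21, and 24391_1 read 0.72. LYN had 3 features on each side of 0, BANK1 had 4 of 6 below it, and BLK had 1 of 5 below it, at -1.32.

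Over the 60 features of the 9 genes, 16 were below 0 on all 4 arrays (26.7%), against 18.5% of all 10169 features with 1 symbol. Above 0 on all arrays were 5 of the 60 (8.33%), against 19.6% of all. Of the 16, 8 belonged to CD79B. Features of 1 gene share its transcript and the same RNA, and no feature passed on its own (0% of all).

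**Figure D4:**
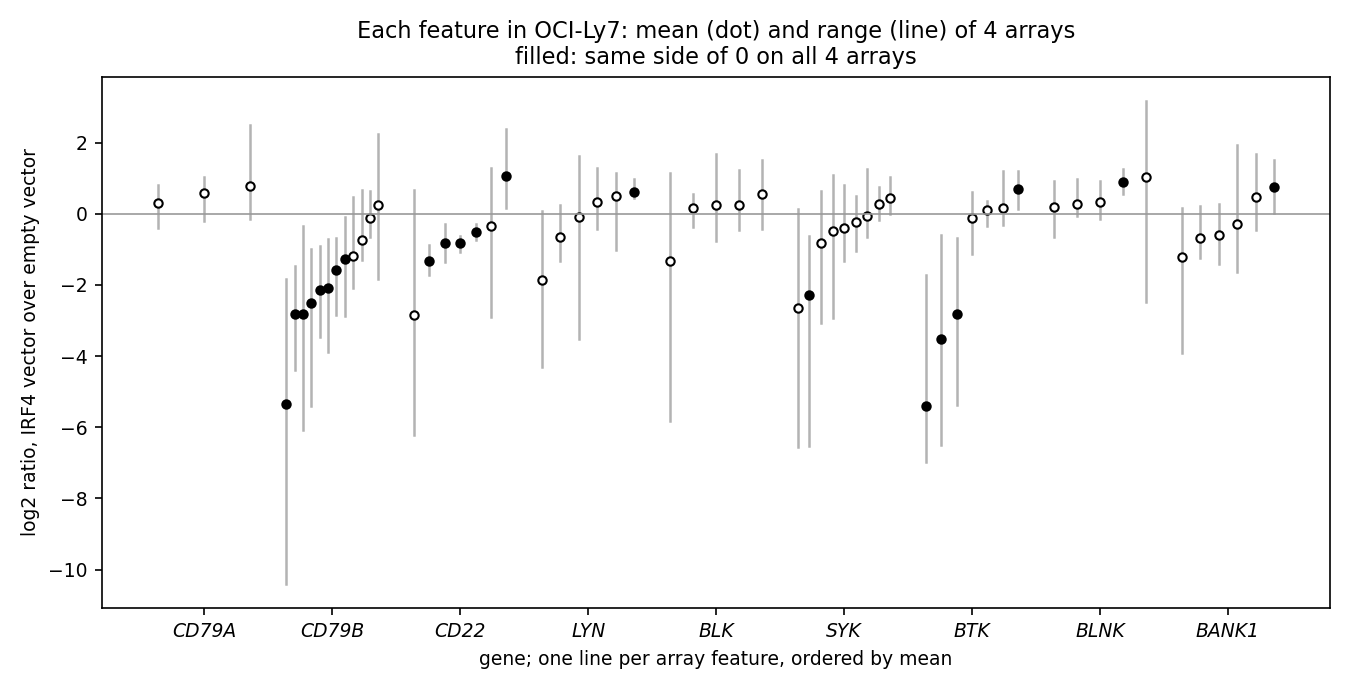
Mean (dot) and range (line) over the 4 OCI-Ly7 arrays of each of the 60 features, grouped by gene, as the log2 ratio of IRF4 vector over empty vector; filled dots lay on the same side of 0 on all 4 arrays. CD79B has 8 filled dots below 0, and the low mean of BTK comes from 3 features between -5.40 and -2.83.

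No receptor gene passed for a change with the day after transduction, and 0% of the 4604 genes passed for the slope, with 12.3% at an unadjusted p under 0.05. The slope per day was -0.52 for CD79B (SE 0.28, adjusted p 0.566), -0.35 for BTK (adjusted p 0.878) and 0.35 for CD22 (adjusted p 0.743), and the slopes of the other 6 genes lay between -0.24 and 0.28. With 4 arrays over 3 days these slopes are loosely held.

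Of the 82 further pathway genes 66 were named on the human array, and none passed. Of these, 26 had a mean above 0 and 40 below, with a median of -0.31 against -0.14 for all genes, and 14 had an unadjusted p under 0.05, which 23.9% of all genes had. Among those lower with the IRF4 vector were CD72, an inhibitory co-receptor of B cells, at -2.70 (SE 0.82, adjusted p 0.157), and the exchange factors VAV3 at -2.57 (SE 0.64, adjusted p 0.133) and VAV1 at -1.56 (SE 0.47, adjusted p 0.155). Those higher were PTPN6, the phosphatase SHP-1 that CD22 recruits, at 1.11 (SE 0.37, adjusted p 0.167), STAP1 at 0.91 (SE 0.29, adjusted p 0.162) and DAPP1, an adaptor downstream of PI3 kinase, at 0.69 (SE 0.27, adjusted p 0.199). These 6 genes were chosen after their values were seen. LCK, at -1.38 (limma, unadjusted p 0.00537, adjusted p 0.130), had a smaller p than any of them.

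The genes measured in both species can be set side by side, though the comparisons differ in design and no test joins them. CD79B was at -1.86 with the IRF4 vector over the empty vector in OCI-Ly7, and Cd79b in KO minus Het cells was at -0.63, -0.37, 0.17 and -0.42 at 0, 24, 48 and 96 h, with 0.28 at 0 h when the lowest range was left out. BANK1 was at -0.26 with the IRF4 vector, and Bank1 in KO minus Het cells was at -1.30, -0.71, 0.27 and 0.05 at the same times.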

How the data were processed

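The deposited values were read as log2 ratios of 2-colour lymphochip arrays. Per the labels, the sample RNA carried Cy5, and the pool or empty-vector RNA Cy3. How the authors scanned, corrected and normalized the arrays is not given in the sources used here, and the base of 2 was taken from the range. Cy5 over Cy3 was assumed; the opposite would turn every sign. Single-channel signals were not analysed here. From every array the median of all its features was subtracted, and features with 1 symbol (559 mouse, 10169 human) were averaged per gene (331 and 4604). No value was missing and no filter was applied.

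limma 3.58.1 in R 4.3.3 fitted 1 mean per genotype and time to the 23 mouse arrays, and the mean ratio, or a slope on the day, to the 4 human arrays. Tests were two-sided moderated tests with Benjamini-Hochberg adjustment over all genes of a comparison, at a threshold of 0.05, and were tested on simulated data. Where titles and channel fields disagreed on genotype (3 arrays), titles were followed. The members and lists were chosen with earlier results of these data known. Named genes were all members and their features, the 5 genes most correlated with each mouse member, further pathway genes passing the threshold, and Jchain and IRF4 as checks of direction. Also named were cell type markers and human pathway genes that did not pass, the latter picked after their values were seen. Alternatives varied centring, normalization, feature summary, array weights, arrays included, database range and replicate block.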

Additional observations from a re-analysis of the deposited data

How the results depend on the processing

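Over all alternatives, 51 values of single genes were recomputed 1362 times: 1225 kept their direction and their side of the threshold, 54 lost a call, 20 gained one and 63 turned in sign. The cause was not tested unless stated. The call of Bank1 at 96 h against 0 h in Het cells was lost in 12 of 35 alternatives. The number of receptor genes passing there was 0, in place of 1, with arrays centred over the features with 1 symbol (Bank1 -0.41, adjusted p 0.112), with no centring (-0.72, 0.0505), quantile normalization (-0.45, 0.487), array weights (-1.19, 0.0815), only the compared groups fitted (-1.03, 0.210), the database range as a factor (-0.59, 0.320), the lowest range left out (-0.27, 0.792) and the conflicting arrays left out (-1.03, 0.0521). Leaving out single arrays gave counts of 0 to 2 there, with Bank1 between -1.42 and -0.84; it was lost without Het 0 h replicate 1 (0.141) or 2 (0.159) and Het 96 h replicate 1 (0.108) or 2 (0.0691), and Cd79b joined it without Het 0 h replicate 3 (-1.27, 0.00520).

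With arrays centred over the named features, 1 gene passed for KO minus Het at 0 h, 2 for 24 h and 2 for 48 h in Het cells, 1 for 96 h in KO cells (Bank1 0.94, adjusted p 0.0165), and 1 each for the difference of the 48 h and of the 96 h response (Bank1 1.56, 0.0341, and 1.35, 0.0200). No centring gave 1 gene for KO minus Het at 0 h, and the range as a factor gave 1 for 24 h in Het cells (Cd79b -1.21, 0.0209). Without single arrays the counts ran from 0 to 2 for KO minus Het at 0 h and for 48 h in Het cells, and from 0 to 1 for 24 h in Het cells and for the 48 h and 96 h differences, each upper end being without Het 0 h replicate 3. For OCI-Ly7, 1 gene, CD79B, passed under quantile normalization and with array weights.

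Signs turned mostly where differences were small. Centred over the named features, Cd79b was at 0.13 for KO minus Het at 24 h, 0.059 on average over the LPS times and 0.019 for 96 h in KO cells, Bank1 was at 0.14 on average, and BLK at 0.0039. Under quantile normalization, KO minus Het was 0.18 (Cd79b, 0 h), -0.17 (Cd79b, 48 h) and -0.56 (Bank1, 48 h). The Het changes were 0.20 (Bank1, 24 h), 0.27 (Cd79b, 48 h) and 1.18 (Bank1, 48 h), and the KO changes of Bank1 -0.33 (24 h) and -0.20 (96 h). The differences of response were then -0.19, -0.35 and -0.41 for Cd79b at 24, 48 and 96 h, -0.53 and -0.51 for Bank1 at 24 and 48 h, and the SYK slope was 0.061. Array weights gave -0.034 for Cd79b in KO minus Het at 48 h, and the range as a factor 0.21 for Cd79b at 48 h in KO cells. Without the lowest range, Cd79b was at 0.28 for KO minus Het at 0 h, 0.076 and 0.10 for 48 and 96 h in Het cells, and -0.44, -0.11 and -0.70 for the 3 differences of response, and Bank1 at 0.12 for 24 h in Het cells. For KO minus Het at 48 h, Cd79b and Bank1 were at -0.14 and -0.065 without the conflicting arrays and at -0.30 and -0.29 with those taken as Het; Bank1 at 24 h in KO cells was at -0.027 either way. With the median of features BLK was at 0.31 and the slopes of CD22, SYK and BLNK at -0.0074, 0.13 and -0.035; over single features LYN was at 0.11, BLK at 0.25 and the slopes of CD22 and SYK at -0.090 and 0.041. With values beyond 6 set missing, a setting chosen after seeing the data, the BTK slope was 0.025.

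Without single arrays, KO minus Het at 48 h ran from -0.21 to 0.55 (Cd79b) and -0.11 to 0.66 (Bank1), at 96 h from -0.11 to 0.18 (Bank1) and on average from -0.26 to 0.0013 (Bank1). In KO cells it ran from -0.32 to 0.17 (Cd79b, 48 h) and -0.027 to 0.27 (Bank1, 24 h), and the Cd79b difference of response from -0.024 to 0.72 (24 h) and -0.068 to 0.67 (96 h). The human values ran from -0.49 to 0.11 (LYN) and -0.27 to 0.33 (BLK), and the slopes from -0.37 to 0.14 (CD79A), -0.54 to 1.19 (SYK), -0.89 to 1.17 (BTK) and -0.013 to 1.02 (BLNK). The falls of Tec and Jun in Het cells kept their sign throughout (-2.49 to -0.95); that of Tec at 48 h lost its call in 23 of 35 alternatives. Same-numbered KO and Het arrays did not deviate together throughout (10 pairs, correlations -0.17 to 0.51, 5 over 0.1), so the numbers were not taken as pairs; with the replicate block Bank1 was at -1.30 (adjusted p 0.122) for KO minus Het at 0 h and at -1.16 (adjusted p 0.0403) for 96 h in Het cells, and no count of receptor genes passing changed.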
